A study of Homo sapiens with 4 samples.

Results

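The mesenchymal state genes are 10 genes whose products mark cells of mesenchymal character: VIM, CDH2, CDH11, FN1, SPARC, AXL, LOX, MMP2, TGFBI and THY1. They were chosen by name, with a rule that uses no measured value, from the 20136 protein-coding genes of the GENCODE annotation on hg19. Earlier results of these data were known when they were chosen. The study behind them predicts gain-of-function regulatory mutations in cancer genomes, and H3K27ac ChIP-seq was performed on 4 of its cell lines to obtain active regulatory regions. All of them are established human cancer cell lines, each profiled once with the same antibody against H3K27ac, and no treatment is given in the labels. COLO-205 derives from colon cancer and was grown in RPMI with FBS. DU-145 derives from prostate cancer and was grown in Eagle minimal essential medium with FBS. OVCAR-3 and SKOV-3 derive from ovarian cancer, and were grown with FBS in RPMI and in McCoy's 5a minimal essential medium, respectively. With 1 library per line there is no replicate, so no p-value can be given between lines, and the spread between cultures of 1 line is unknown.

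Acetylation of lysine 27 of histone H3 is laid down at active promoters and enhancers, and a peak of this mark shows where a regulatory region is likely in use. It is not a measurement of transcription. Carcinoma cells can shift between an epithelial state, held together by E-cadherin junctions and keratins, and a mesenchymal state, with vimentin filaments, other cadherins and a secreted matrix. The shift is known as the epithelial-mesenchymal transition (EMT), and transcription factors of the ZEB, SNAI and TWIST families, as well as AP-1 and TEAD proteins, are known to act in it.

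For each gene, a promoter peak is a peak that overlaps 1 kb on either side of any annotated transcript start, and a distal peak lies in the gene body or within 50 kb of it and away from the starts of all coding genes. Most genes have several annotated starts, between 5 and 19 for the 10 genes, so the start of the canonical transcript was also examined alone. The peaks carry values of the authors' peak caller MACS2, namely the fold enrichment of tags at the peak summit over the local background and the significance as −log10 of the q-value, where the calling threshold of 0.001 is 3. These values are not scaled between libraries. Each peak is therefore set against the promoter or distal peaks of its own library, and the fold enrichment is given with a 95% exact Poisson interval of its tag pileup, which covers counting error only.

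Sequences under peaks of high rank at VIM, AXL and TGFBI are shown because the results turn on these 3 loci. They were read from the plus strand of the GRCh37 reference, in windows of 300 bases centred on the summit, and shortened where the window ran into an annotated UTR. Capitals mark matches on either strand to TGANTCA (AP-1), CAGGTG (the E-box of ZEB and SNAI factors), GGAATG (TEAD), GCGTGGGCG (EGR) or GGGCGG (GC box).
VIM, DU-145 promoter peak, chr10:17270757-17270867: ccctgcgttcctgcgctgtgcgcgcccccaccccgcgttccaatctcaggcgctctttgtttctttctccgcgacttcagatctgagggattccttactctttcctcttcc
AXL, DU-145 promoter peak, chr19:41725298-41725465: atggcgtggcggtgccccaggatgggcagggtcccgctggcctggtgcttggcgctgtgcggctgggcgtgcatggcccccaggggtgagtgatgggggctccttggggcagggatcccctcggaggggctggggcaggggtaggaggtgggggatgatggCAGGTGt
AXL, DU-145 intronic peak, chr19:41729258-41729557: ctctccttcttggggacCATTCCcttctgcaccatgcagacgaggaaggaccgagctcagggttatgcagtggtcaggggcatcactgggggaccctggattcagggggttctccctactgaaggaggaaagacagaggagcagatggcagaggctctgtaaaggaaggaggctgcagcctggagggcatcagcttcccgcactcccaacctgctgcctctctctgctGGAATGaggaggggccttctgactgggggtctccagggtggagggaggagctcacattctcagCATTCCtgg
AXL, SKOV-3 peak near the intronic start, chr19:41731790-41732089: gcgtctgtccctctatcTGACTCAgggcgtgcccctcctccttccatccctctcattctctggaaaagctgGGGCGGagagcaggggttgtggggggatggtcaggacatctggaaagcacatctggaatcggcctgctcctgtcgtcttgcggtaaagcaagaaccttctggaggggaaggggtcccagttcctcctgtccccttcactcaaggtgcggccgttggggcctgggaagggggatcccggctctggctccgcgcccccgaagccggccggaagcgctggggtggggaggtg
TGFBI, COLO-205 intronic peak, chr5:135379819-135380118: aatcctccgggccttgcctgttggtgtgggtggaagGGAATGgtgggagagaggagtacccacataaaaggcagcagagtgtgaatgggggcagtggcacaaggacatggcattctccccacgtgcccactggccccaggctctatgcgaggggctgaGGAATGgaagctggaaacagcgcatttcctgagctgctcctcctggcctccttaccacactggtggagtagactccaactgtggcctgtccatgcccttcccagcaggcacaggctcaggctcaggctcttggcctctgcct

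The AXL intronic window of DU-145 holds 3 TEAD matches, at -133, 78 and 141 bp from the summit. Its promoter window holds 1 E-box at 143 bp. The SKOV-3 window near the intronic start of AXL holds an AP-1 match at -133 bp and a GC box at -79 bp, and the TGFBI window holds TEAD matches at -114 and 8 bp. The VIM sequence contains none of the 5 motifs. Some of these letters are common and others are not. A TEAD match is present in 11.9% of all distal windows of DU-145 and in 11.7% of those of COLO-205, and an E-box in 30.7% of the promoter windows of DU-145. AP-1 is found in 2.84% of the promoter windows of SKOV-3, the GC box in 67.1% and EGR in 0.929%. A match describes the sequence and does not show binding.

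Peaks at the starts of these genes differed from gene to gene and from line to line. VIM and AXL had peaks at their canonical start in DU-145 and SKOV-3 and none there in COLO-205 and OVCAR-3, and those of DU-145 were among the widest of the library. TGFBI was marked in COLO-205 and DU-145. No peak was found at a start of CDH2, CDH11 or MMP2 in any line.

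Counting any annotated start, 4 of 10 genes had a promoter peak in COLO-205 (SPARC, AXL, TGFBI and THY1), where 51.2% of all coding genes had one. In DU-145 the genes were VIM, AXL, LOX and TGFBI, again 4 of 10, beside 59.9% of all coding genes. In OVCAR-3 they were FN1 and AXL, 2 of 10 beside 60.5%. In SKOV-3 they were VIM, FN1, SPARC, AXL and THY1, 5 of 10 beside 31.6%. The share was thus below that of all coding genes in COLO-205, DU-145 and OVCAR-3, and above it in SKOV-3, where each gene weighs 10 percentage points.

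The canonical start alone gave fewer genes. TGFBI was the 1 gene marked there in COLO-205 (45.2% of all genes with a canonical start), and no gene was marked in OVCAR-3 (57.4%). In DU-145 the count stayed at 4 of 10 (56.8%), and in SKOV-3 it was 3 of 10, namely VIM, FN1 and AXL (29.5%). Of the 40 combinations of gene and line, 15 had a promoter peak and 8 had one at the canonical start. The canonical peaks farthest from the start, though well inside the 1 kb window, were the LOX peak of DU-145, 458 bp from the canonical start, and the FN1 peak of SKOV-3 at 548 bp. The nearest outside it were peaks of THY1, 2194 bp away in SKOV-3 and as far as 2649 bp in COLO-205, and of SPARC at 2691 bp in DU-145.

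**Figure D1:**
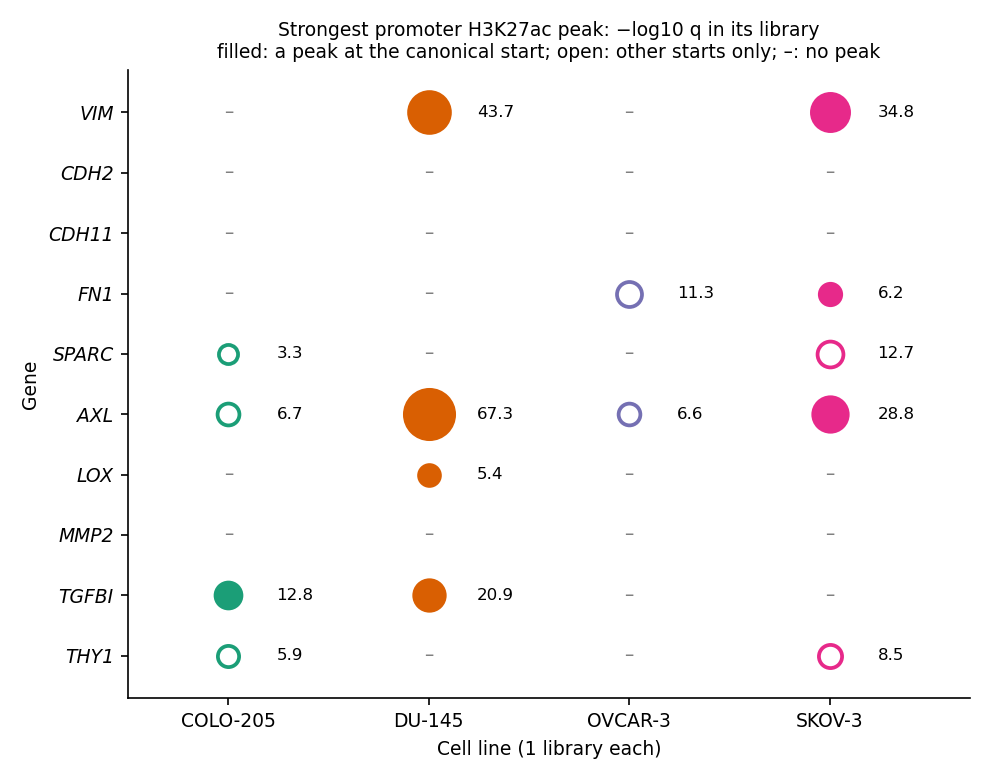
Strongest promoter peak of each of the 10 genes (rows) in each of the 4 lines (columns, 1 library each). The number and the circle size give the −log10 q of that peak, filled circles mark genes with a peak within 1 kb of the canonical start, open circles those with peaks at other starts only, and dashes no promoter peak. The highest values are those of AXL (67.3) and VIM (43.7) in DU-145 and of VIM (34.8) and AXL (28.8) in SKOV-3. The AXL value of SKOV-3 is that of the peak near the intronic start, and its peak at the canonical start has 8.80.

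The SKOV-3 list is the shortest, with 14001 peaks against 75468 to 85576 in the others, and 54.6% of its peaks lie at promoters against 19.7% to 28.2%. When the same number of peaks was kept in every library, by highest −log10 q, the genes with a promoter peak numbered 5 in SKOV-3, 3 in DU-145 (VIM, AXL and TGFBI) and 0 in both COLO-205 and OVCAR-3. The shares of all coding genes were then 31.6% in SKOV-3, 37.8% in DU-145, 38.0% in OVCAR-3 but 21.8% in COLO-205. The smallest tag pileup called as a peak was 11 to 14 in the 4 libraries, and more is needed where the local background is higher, so the lack of a peak does not show that the mark is absent.

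VIM encodes vimentin, the intermediate filament protein of mesenchymal cells (chr10:17270240-17279592, plus strand). In DU-145 a single peak of 3033 bp spanned its canonical start, at a fold enrichment of 7.01 (5.66 to 8.59) and a −log10 q of 43.7, above 93.8% of the promoter peaks of that library. It was also wider than 99.1% of them, and a second, narrower peak marked an internal start (4.61, 2.99 to 6.83). In SKOV-3 there were 4 promoter peaks, all of which fell inside the stretch covered by the DU-145 peak. The strongest reached 9.06 (6.93 to 11.6) with a −log10 q of 34.8, above 94.0% of the SKOV-3 promoter peaks, and its summit was 43 bp from that of DU-145. These ranks come from promoter peak lists of unequal length, 21280 in DU-145 and 7646 in SKOV-3, and do not compare the lines. With neighbours less than 350 bp apart merged, the SKOV-3 peaks formed 1 peak of 2355 bp beside the 3033 bp of DU-145.

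Both lines also shared an element upstream of VIM, in an intron of the antisense lncRNA VIM-AS1. Its summits lay 2 bp apart, at -11374 bp from the canonical start in DU-145 and -11376 bp in SKOV-3. Its fold enrichment was 5.94 (4.10 to 8.36) in DU-145, above 84.4% of the distal peaks there by −log10 q, and 10.3 (7.10 to 14.5) in SKOV-3, above 92.2%. In SKOV-3 it was the 1 distal peak of VIM, with the highest fold enrichment among the 12 distal peaks of the 10 genes. DU-145 had a further peak at -12659 bp (6.26, 4.17 to 9.07), with a lower −log10 q. Both DU-145 peaks are below the −log10 q of 17.0 at which its list was cut to the length of that of SKOV-3, which itself stays whole. COLO-205 had no peak in the whole VIM window, its nearest lying 159066 bp from the start, and the 1 peak of OVCAR-3 there sits at the start of the neighbouring gene TRDMT1. Between 50 kb and 1 Mb from VIM, COLO-205 and OVCAR-3 each had 1.58 peaks per Mb, or 0.057 and 0.064 times their genome average, and DU-145 and SKOV-3 had 0.69 and 0.81 times theirs. The part of this in the VIM result was not tested. H3K27ac carries no strand, so peaks at VIM and at VIM-AS1 cannot be told apart.

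**Figure D2:**
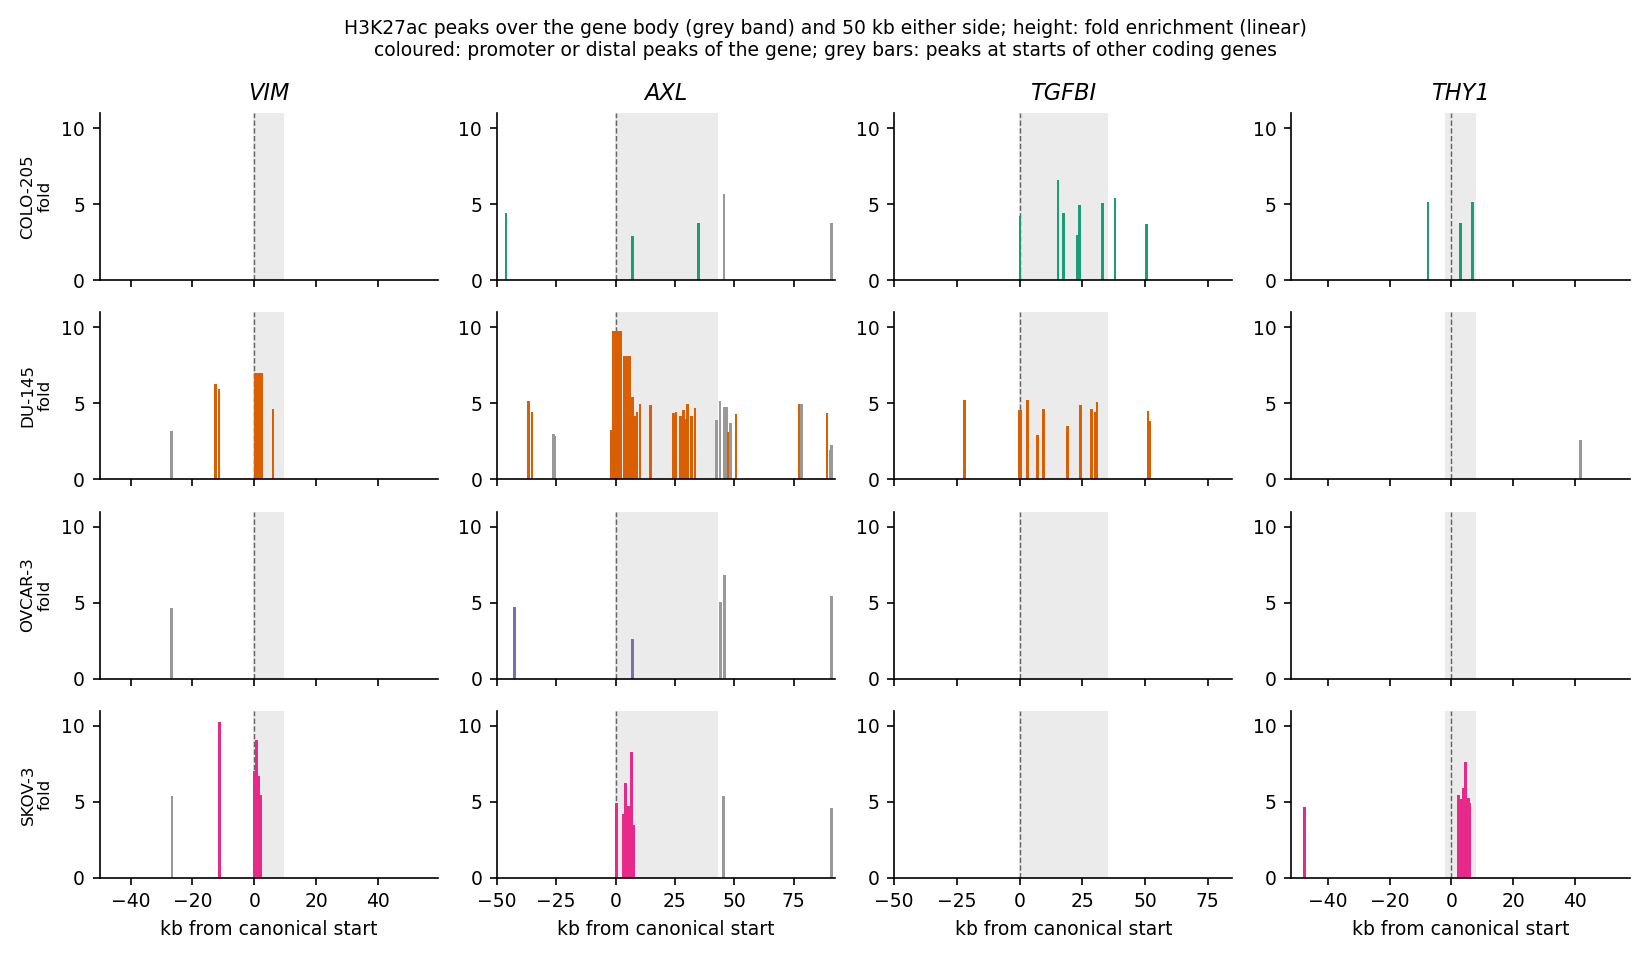
Peaks around VIM, AXL, TGFBI and THY1 (columns) in each line (rows), by distance from the canonical start in kb, oriented along the gene, with the gene body as a grey band. Bar height is the fold enrichment on a linear scale, narrow peaks are drawn at a minimum width, and grey bars are peaks at starts of other coding genes. The VIM element upstream of the start appears in DU-145 and SKOV-3 only, and the AXL body in DU-145 is filled with peaks.

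No peak was called at the starts of the cadherin genes. CDH2 encodes N-cadherin, which replaces E-cadherin in the mesenchymal state, and CDH11 encodes OB-cadherin of mesenchymal cells. The nearest peak to the canonical start of CDH2 (chr18:25512843-25757910, minus strand) was 255046 bp away in OVCAR-3, 729126 bp in DU-145, 1235282 bp in SKOV-3 and as far as 1627487 bp in COLO-205. The OVCAR-3 peak is the sole distal peak of this gene in the 4 lists, with 234 bp, a fold enrichment of 7.47 (5.05 to 10.7) and a −log10 q of 16.4, in an intron of an unnamed lncRNA beyond the 3′ end of CDH2. For CDH11 (chr16:64977656-65160015, minus strand) the nearest peak was 350602 bp away in COLO-205 and over a megabase away in the other lines. The surroundings of both genes were poor in peaks of any kind: between 50 kb and 1 Mb from them there were 0 to 1.58 peaks per Mb, while the genome averaged 24.4 to 27.6 per Mb in COLO-205, DU-145 and OVCAR-3 and 4.52 in SKOV-3.

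Among the genes for secreted matrix proteins, TGFBI was the one marked at its canonical start in more than 1 line. It encodes a matrix protein that is induced by TGF-beta and binds integrins and collagens (chr5:135364677-135399507, plus strand). Its canonical start carried a peak of 767 bp in COLO-205, with a fold enrichment of 4.19 (3.07 to 5.59) and a −log10 q of 12.8, and a peak of 1292 bp in DU-145, with 4.55 (3.52 to 5.78) and 20.9. The summits were 26 bp apart, and the peaks ranked above 68.0% and 69.3% of the promoter peaks of their libraries. In OVCAR-3 and SKOV-3 no peak was found in the entire TGFBI window, and the nearest were 103868 and 103896 bp from the start. Between 50 kb and 1 Mb from the gene, the peaks per Mb were 2.38 times the genome average in COLO-205, 0.99 times in DU-145, 0.15 times in OVCAR-3 and 1.98 times in SKOV-3, and the part of this in the TGFBI result was not tested.

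Inside the gene and around it, COLO-205 had 4 distal peaks of TGFBI and DU-145 had 6, and none of these overlapped between the lines. The strongest in COLO-205 was the intronic peak at 15292 bp from the start (6.58, 4.48 to 9.36), above 87.6% of the distal peaks of the library, whose sequence is given above. In DU-145 the highest −log10 q was that of a peak at 51909 bp, beyond the gene, with 3.86 (2.89 to 5.05). Besides the canonical start, peaks at internal starts brought the promoter peaks of TGFBI to 4 in COLO-205 and 6 in DU-145, and 1 of the internal peaks was shared. Among all distal peaks, 8.21% of those of COLO-205 overlapped a DU-145 peak and 9.63% of those of DU-145 a COLO-205 peak, so no overlap among so few is near the background.

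FN1 encodes fibronectin, a glycoprotein of the extracellular matrix (chr2:216225163-216300796, minus strand). SKOV-3 alone had a peak at its canonical start, with the smallest width called in that library, 192 bp. Its fold enrichment was 5.45 (3.14 to 8.90) and its −log10 q of 6.17 exceeded 9.53% of the promoter peaks. The summit lay at -672 bp, in an exon of the divergent lncRNA FN1-DT, and marks of the FN1 and FN1-DT starts cannot be told apart. In OVCAR-3 a peak of 214 bp marked an internal start, with 5.63 (3.72 to 8.21) and a −log10 q of 11.3, above 28.4% of the promoter peaks. COLO-205 and DU-145 had no promoter peak, and the 1 distal peak of FN1 was in DU-145, in an intron of the neighbouring gene ATIC (4.70, 2.96 to 7.14).

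SPARC encodes osteonectin, a collagen-binding protein of matrix and bone (chr5:151040657-151066536, minus strand). None of the lines had a peak at its canonical start. An internal start was marked in SKOV-3, where a peak in an exon had a fold enrichment of 6.22 (4.21 to 8.90) and a −log10 q of 12.7, above 52.5% of the promoter peaks. Another was marked weakly in COLO-205, at 2.82 (1.73 to 4.37) and 3.25, above just 0.11% of them. In contrast, OVCAR-3 had 9 distal peaks near SPARC, or 7.15 per 100 kb, more than 88.1% of coding genes in that line, although no start of SPARC was marked there.

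The strongest of these OVCAR-3 peaks, with 868 bp and a fold enrichment of 7.71 (5.54 to 10.5), was at -12875 bp from the start of SPARC in an intron of the lncRNA CLMAT3. It overlapped a SKOV-3 peak of 599 bp with 6.23 (3.92 to 9.47), and the summits were 206 bp apart. Distal peaks of SPARC numbered 1 in COLO-205, 3 in DU-145 and 2 in SKOV-3. The COLO-205 one had a fold enrichment of 4.72 (3.09 to 6.94). The highest among the DU-145 ones by −log10 q was 4.64 (2.92 to 7.05), in a stretch with no annotated gene.

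LOX encodes lysyl oxidase, which cross-links collagen and elastin (chr5:121398890-121414108, minus strand). DU-145 had a peak of 306 bp within its first kilobase, with a fold enrichment of 2.71 (1.91 to 3.74) and a −log10 q of 5.43, above 5.31% of the promoter peaks of that library. This is the weakest of the promoter peaks found at a canonical start among the 10 genes. COLO-205 had no promoter peak of LOX but 2 distal peaks in introns of SRFBP1, the stronger with 4.60 (2.74 to 7.30), and OVCAR-3 and SKOV-3 had none of either kind. MMP2 encodes a gelatinase that degrades type IV collagen (chr16:55423612-55540603, plus strand). It had neither promoter nor distal peaks in any line, and the nearest peak to its canonical start was between 176321 bp away, in COLO-205, and 822726 bp away, in OVCAR-3.

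AXL encodes a receptor tyrosine kinase that is activated by GAS6 and known from mesenchymal and drug-resistant carcinoma cells (chr19:41725128-41767671, plus strand). In DU-145 it had more peaks than any other of the 10 genes, and the highest −log10 q. A DU-145 peak of 4188 bp covered 100% of the window around the canonical start, with a fold enrichment of 9.74 (8.02 to 11.7) and a −log10 q of 67.3. It exceeded 98.9% of the promoter peaks by −log10 q and 99.8% by width. SKOV-3 also had a peak at this start, of 615 bp, with 4.94 (3.27 to 7.21) and a −log10 q of 8.80, above 28.8% of its promoter peaks. In COLO-205 and OVCAR-3 the nearest peaks lay 6818 and 6724 bp downstream.

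Those peaks mark a region around an annotated start in an intron of AXL, the 1 promoter region of the 10 genes that was acetylated in all 4 lines. The fold enrichment there was 2.89 (2.09 to 3.91) in COLO-205 and 2.64 (1.94 to 3.51) in OVCAR-3, above 25.4% and 8.35% of the promoter peaks by −log10 q. It was 5.40 (4.21 to 6.83) in DU-145, above 78.3%, and 8.26 (6.21 to 10.8) in SKOV-3, above 89.6%. In SKOV-3 this region, not the canonical start, held the strongest AXL peak, whose summit was 36 bp from that of DU-145. A second SKOV-3 peak there had 3.51 (2.47 to 4.84), and its summit lay 37 bp from that of OVCAR-3 and 39 bp from that of COLO-205.

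Between the canonical and the intronic start, DU-145 had a peak of 3230 bp with a fold enrichment of 8.10 (6.41 to 10.1) and a −log10 q of 41.4. It exceeded 99.2% of the distal peaks of the library, and its central 300 bases are printed above. With neighbours less than 350 bp apart merged, it joined the promoter peak in a stretch of 8478 bp and was no longer distal, and 14 distal peaks of AXL were left in DU-145. All 3 distal peaks of SKOV-3 at AXL fell inside it, the strongest with 6.27 (4.32 to 8.81) and a summit 53 bp from that of DU-145. Altogether DU-145 had 20 distal peaks at AXL, 12 of them in introns of the gene, which is 14.0 per 100 kb and more than for 94.1% of coding genes. COLO-205 had 2 distal peaks of AXL, the stronger at -46105 bp (4.41, 2.98 to 6.30), and OVCAR-3 had 1, at -42444 bp (4.70, 3.18 to 6.72). The region was rich in peaks beyond AXL as well: between 50 kb and 1 Mb from it there were 85.8 peaks per Mb in DU-145 and 80.5 in OVCAR-3, which is 3.52 and 3.28 times the genome average of each, and the part of this in the AXL count was not tested.

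**Figure D3:**
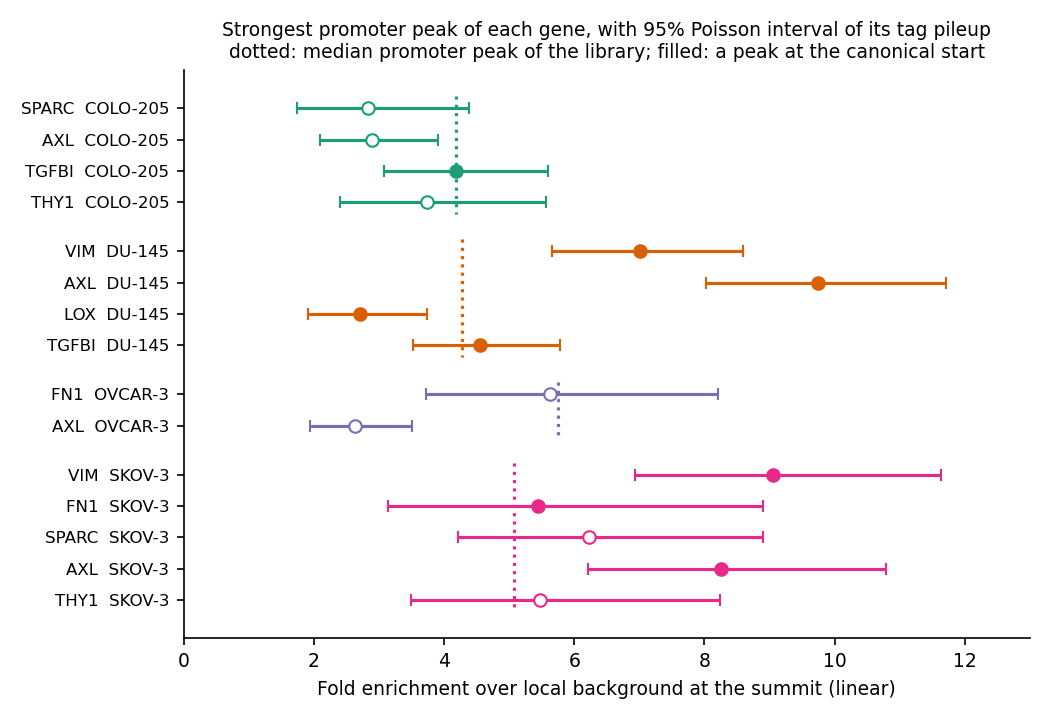
Fold enrichment at the summit (linear axis) of the strongest promoter peak of each gene with one, grouped by line. Horizontal bars are 95% exact Poisson intervals of the tag pileup, dotted lines the median of all promoter peaks of the library (4.19, 4.27, 5.74 and 5.08 from top to bottom), and filled points genes with a peak at the canonical start. The AXL peak plotted for SKOV-3 is the one near the intronic start. The intervals of VIM and AXL in DU-145 and SKOV-3 lie above the median of their library, those of AXL in COLO-205 and OVCAR-3 and of LOX below it.

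THY1 encodes a surface glycoprotein of fibroblasts and other mesenchymal cells (chr11:119286186-119295695, minus strand). Its canonical start was not marked in any line. In SKOV-3, however, a run of consecutive peaks lay in the 3′ part of the gene, 2 of them at an internal start and 5 counted as distal. The stronger promoter peak had a fold enrichment of 5.47 (3.48 to 8.24) and a −log10 q of 8.55, above 26.7% of the promoter peaks. The strongest peak of the run, of 1065 bp, had a fold enrichment of 7.61 (5.51 to 10.3) and a −log10 q of 21.6, above 91.8% of the distal peaks by −log10 q and wider than 98.5% of them. With 1 further peak in USP2-AS1, THY1 had 6 distal peaks in SKOV-3, or 5.48 per 100 kb, more than for 98.8% of coding genes in that line. This density rests on unmerged peaks: with neighbours less than 350 bp apart merged, the run became 1 promoter peak of 3951 bp, and THY1 was left with 1 distal peak, or 0.91 per 100 kb. Between 50 kb and 1 Mb from the gene SKOV-3 had 15.8 peaks per Mb, 3.49 times its genome average, and the part of this in the THY1 count was not tested.

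COLO-205 overlapped this stretch with 1 weak promoter peak of 3.74 (2.40 to 5.57), above 15.1% of its promoter peaks, and had 2 distal peaks of THY1, the stronger in a UTR exon with 5.15 (3.40 to 7.51). In DU-145 and OVCAR-3 no peak was assigned to the gene. The absence in DU-145 stands in surroundings that are rich in peaks, with 138 per Mb between 50 kb and 1 Mb from the gene. The antisense lncRNA genes USP2-AS1 and THY1-AS1 overlap THY1, so the SKOV-3 peaks cannot be assigned to 1 gene.

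DU-145 had 32 distal peaks over 16795 bp, SKOV-3 had 12 over 4626 bp, COLO-205 had 11 over 3424 bp and OVCAR-3 had 11 over 3523 bp. With the lists cut to the length of that of SKOV-3, the counts were 12 in SKOV-3, 1 each in DU-145 and COLO-205 and 0 in OVCAR-3, where the SKOV-3 list is not cut and its count could not change. Distal peaks were then left at 1 of 10 genes in DU-145 and in COLO-205, none in OVCAR-3 and 4 in SKOV-3, beside 20.6%, 15.9%, 18.6% and 21.9% of coding genes. At least 1 distal peak was found for 5 of 10 genes in COLO-205 (73.6% of coding genes), and likewise for 5 in DU-145 (63.5%), for 4 in SKOV-3 (21.9%) and for 3 in OVCAR-3 (59.3%). As for the promoters, the share was below that of all coding genes in every line but SKOV-3. AXL made up 20 of the 32 peaks in DU-145, and 12 remained without it. A distal SKOV-3 peak of THY1 overlapped a COLO-205 promoter peak by 3 bp and was counted with the promoter regions. The rest of the 66 peaks formed 58 regions, of which 5 (8.62%) were shared by a pair of lines and none by more. Of all distal regions of the 4 lists, 11.8% were shared by at least a pair, so the elements of the 10 genes were about as often called in a single line as others. Of their 20 promoter regions, 6 (30%) were shared, beside 44.5% of all promoter regions. Of the peaks, 21 lay in introns of their gene, 7 in its exons, 19 in another gene and 19 in no annotated gene.

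**Figure D4:**
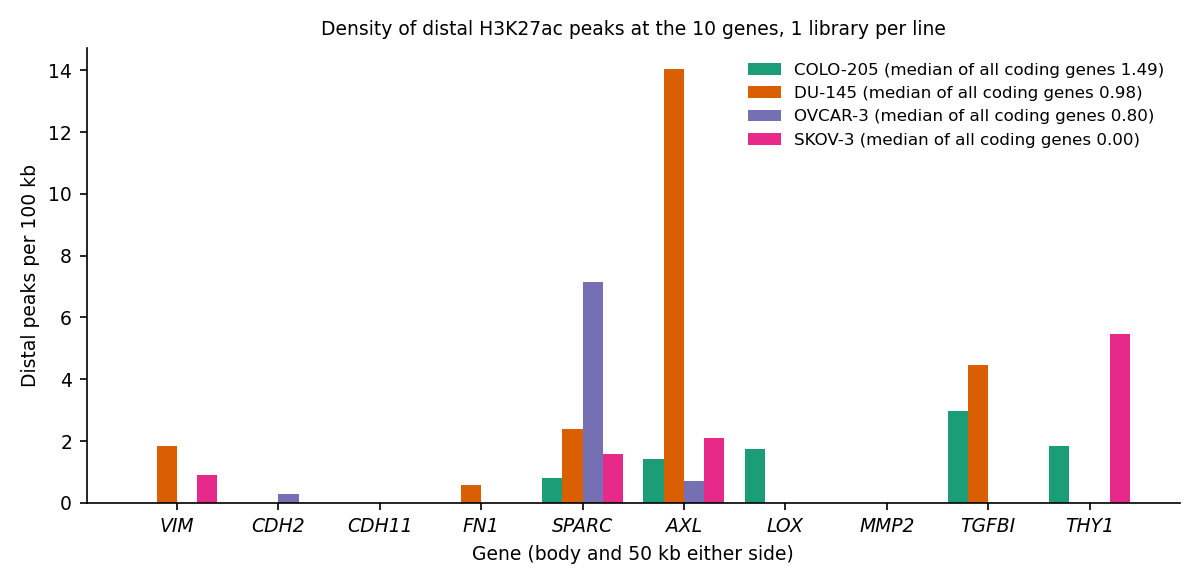
Distal peaks per 100 kb in the body of each gene and 50 kb either side, as bars for each line (1 library each, so no error bar), with the median over all coding genes of the line in the legend. AXL in DU-145 (14.0), SPARC in OVCAR-3 (7.15) and THY1 in SKOV-3 (5.48, or 0.91 with merged peaks) stand highest, and CDH11 and MMP2 are at 0 in all lines.

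Per 100 kb of window, the median distal density over the 10 genes was 0.40 in COLO-205, 0.28 in DU-145 and 0 for both ovarian lines. Over all coding genes it was 1.49 in COLO-205, 0.98 in DU-145 and 0.80 and 0 in OVCAR-3 and SKOV-3. The highest density was that of AXL in DU-145, TGFBI in COLO-205, SPARC in OVCAR-3 and THY1 in SKOV-3. With merged peaks it was that of AXL, with 3 distal peaks, in SKOV-3 too, while AXL in DU-145 had 9.82, TGFBI in COLO-205 2.97 and SPARC in OVCAR-3 5.56.

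Of the 15 combinations of gene and line with a promoter peak, 7 exceeded the median promoter peak of their library by −log10 q. These were VIM, AXL and TGFBI in DU-145, VIM, SPARC and AXL in SKOV-3 and TGFBI in COLO-205. Each gene was represented by its strongest promoter peak, whereas the median is over all single promoter peaks, which favours genes with several. The AXL peak used in SKOV-3 exceeded 89.6% of them, and the one at its canonical start 28.8%. The lowest ranks by −log10 q were those of SPARC in COLO-205, LOX in DU-145, AXL in OVCAR-3 and FN1 in SKOV-3. Ranked by fold enrichment instead, FN1 and THY1 in SKOV-3 were above 59.3% and 59.9% of the promoter peaks, against 9.53% and 26.7% by −log10 q.

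Wider lists of the same biology were counted at canonical starts. Of 50 further mesenchymal genes (collagens, contractile proteins, integrins, TGF-beta components and proteases), 29 (58%) were marked in DU-145, 20 (40%) in OVCAR-3, 19 (38%) in SKOV-3 and 12 (24%) in COLO-205, so the list was below all genes in COLO-205 and OVCAR-3, close to them in DU-145 and above them in SKOV-3. The pattern of VIM and AXL, a peak at the canonical start in DU-145 and SKOV-3 and in no other line, was found in 86 genes of the annotation, or 0.433%. It included 5 of the wider list: TAGLN, an actin-binding protein of smooth muscle, NNMT, a nicotinamide methyltransferase, NT5E, the ecto-enzyme CD73, CD44, the hyaluronan receptor, and CAV1, the coat protein of caveolae. Counting any start, 81 genes (0.402%) had a promoter peak in DU-145 and SKOV-3 only. They included VIM and, of the wider list, TAGLN, NNMT, NT5E and CAV1. At any start, CD44 was also marked in OVCAR-3, and AXL was marked in all 4 lines. CDH2, CDH11, SPARC, MMP2 and THY1 were among the 28.8% of genes marked at the canonical start in none of the lines.

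Among 9 transcription factors of EMT, 3 (33.3%) were marked in each line, which is close to the share of all genes in SKOV-3 (29.5%) and below it in COLO-205 (45.2%), DU-145 (56.8%) and OVCAR-3 (57.4%). ZEB1 was marked in all 4 lines, and SNAI1 in COLO-205, DU-145 and OVCAR-3. TWIST2 was marked in DU-145 and SKOV-3 and TWIST1 in SKOV-3, whereas FOXC2 was marked in COLO-205 and TCF4 in OVCAR-3. On the other side, 24 epithelial genes such as the E-cadherin gene CDH1 carried the mark in 23 cases in OVCAR-3, 22 in COLO-205, 18 in DU-145 and 4 in SKOV-3. Those in SKOV-3 were MAL2, KRT18, KRT19 and DSP, or 16.7% beside 29.5% of all genes. Counting any start, SKOV-3 had 7 of 24 (29.2%), near the 31.6% of all coding genes in its shorter list. DU-145 thus carried the mark at most epithelial genes (75% beside 56.8% of all genes) together with VIM and AXL.

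**Figure D5:**
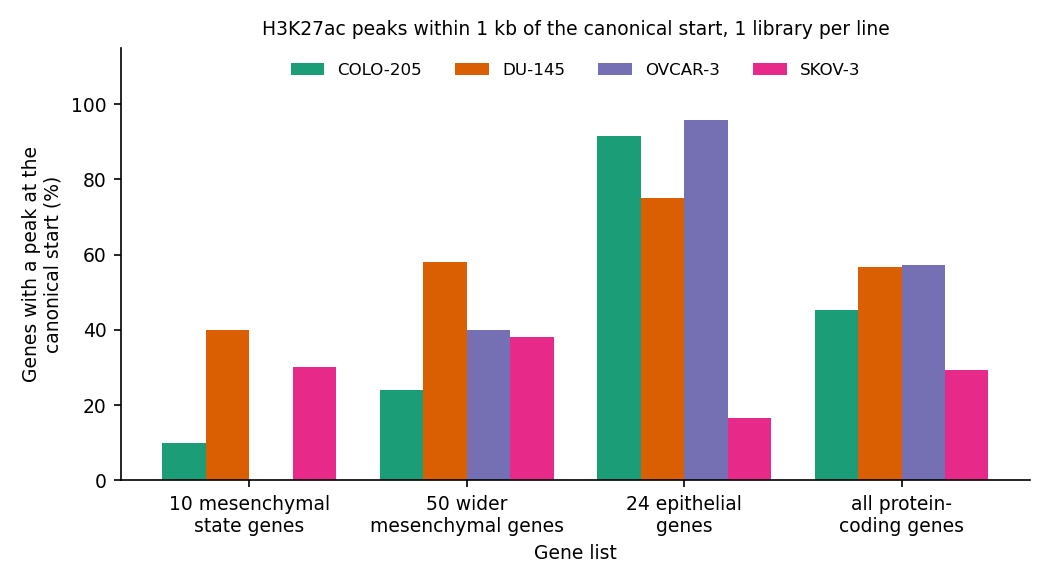
Share of genes (%) with a peak within 1 kb of the canonical start, for the 10 mesenchymal state genes, 50 wider mesenchymal genes, 24 epithelial genes and all protein-coding genes, with 1 bar per line and no error bar (1 library each). The epithelial share is 95.8% in OVCAR-3, 91.7% in COLO-205, 75% in DU-145 and 16.7% in SKOV-3.

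The labelled colon and ovarian tissues were compared with marker genes at canonical starts. Colon markers were marked for 4 of 7 in COLO-205 (CDX2, VIL1, LGALS4 and HNF4A), 1 in OVCAR-3 and none in DU-145 and SKOV-3. The share in COLO-205, 57.1%, is not far from the 45.2% of all genes there, and the shares of all genes at canonical starts given above (29.5% in SKOV-3, 56.8% in DU-145 and, in OVCAR-3, 57.4%) are the background of the other counts too. Ovarian carcinoma markers were marked for 6 of 7 (85.7%) in OVCAR-3 and 2 (28.6%) in SKOV-3 (PAX8 and SOX17), and also for 4 in COLO-205 and 1 in DU-145. Of 8 fibroblast markers, the collagen gene COL1A1 was marked in DU-145 and in OVCAR-3 and no other in any line, and 7 of the 8 also belong to the wider mesenchymal list. None of 5 endothelial markers was marked in any line, and of 6 leukocyte markers CD68 was marked in COLO-205 and DU-145.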

How the data were processed

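H3K27ac was profiled by ChIP-seq in 4 cell lines, 1 library each. The authors mapped reads to hg19 with Bowtie2 2.1.0 and called narrow peaks per library with MACS2 2.1.0.20150603 (submitters' processing notes; q-value below 0.001). The deposited lists hold a score (10 times the −log10 q, cut to a whole number), a fold enrichment, a −log10 p and a −log10 q per peak. Merging of peaks less than 350 bp apart, stated in the methods, is not applied in them and was an alternative. The build is that of the GRCh37 reference, and genes come from GENCODE lifted to it. No peak ended beyond a chromosome.

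Tag pileup and local background were solved within 0.001 from each peak's deposited −log10 p and fold enrichment (at least 99.9% of peaks per list), after a test on simulated data. Distal peaks exclude 1 kb around starts of any coding gene. Overlap means at least 1 bp. The members and lists were chosen with earlier results of these data known. All 10 genes are named in every line, with the promoter and distal peak of highest −log10 q, and genes of other lists only where at most 5 share a pattern. TWIST2, SNAI1 and the other EMT factors are named for this reason. Marker genes of the tissue of DU-145 and some sequences are not reported here. PECAM1 was not matched to the annotation, and CTGF and CYR61 were matched as CCN2 and CCN1. Alternatives were stricter −log10 q thresholds, equal numbers of peaks, merging, other windows and other starts. Analyses used samtools 1.23.1 and Python 3.11.15 with pandas 2.3.3, scipy 1.17.1, numpy 2.4.6 and matplotlib 3.10.9.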

Additional observations from a re-analysis of the deposited data

How the results depend on the processing

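No paired analysis was possible because each line has a single library, and for the same reason no replicate could be left out. The canonical start and the counts without AXL were settings chosen after seeing the data. Promoter counts of DU-145 (4 genes) stayed within 3 and 4 under every setting tried. With a −log10 q of at least 10, COLO-205 fell from 4 to 1 gene, OVCAR-3 from 2 to 1 and SKOV-3 from 5 to 3. With lists cut to equal length, which removes the weaker peaks of the longer lists, COLO-205 and OVCAR-3 had 0. At the 5′ end of the gene body only, and equally at the canonical start only, the counts were 1 in COLO-205, 0 in OVCAR-3 and 3 in SKOV-3. At the canonical start with equal lists they were 0, 0 and 3, beside 20.0%, 35.7% and 29.5% of all genes with a canonical start. Shares of all genes were not counted at a −log10 q of at least 10 or at the 5′ end of the gene body.

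Distal counts moved more. With a −log10 q of at least 10 they were 13 in DU-145 (from 32), 5 in OVCAR-3 (from 11), 4 in SKOV-3 (from 12) and 1 in COLO-205 (from 11). With equal lists they were 1 each in DU-145 and COLO-205, 0 in OVCAR-3 and still 12 in SKOV-3. A flank of 20 kb gave 7 in COLO-205 and 6 in OVCAR-3, and a flank of 100 kb gave 58 in DU-145 and 27 in OVCAR-3. Counting peaks at starts of other genes gave 19 in OVCAR-3, merging gave 7 in SKOV-3 (THY1 from 6 to 1), and leaving out AXL gave 12 in DU-145. These shifts follow from fewer or wider peaks and windows. Taking the strongest peak or its rank by fold enrichment moved none of the 15 promoter peaks by more than its counting interval, which is wide in rank: by fold enrichment FN1 and THY1 in SKOV-3 rose above the median and TGFBI in COLO-205 fell just below it. Taking the peak of highest fold enrichment moved TGFBI in COLO-205 and in DU-145 below it by −log10 q. Those above the median thus numbered 8 and 5, against 7.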

Other observations

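Motifs in the 300-base windows at all peaks of the 10 genes were counted beside all peaks of the same kind. In DU-145 the E-box was present in 15 of 32 distal windows of the genes (46.7% of all distal windows), in COLO-205 in 2 of 11 (43.8%), in OVCAR-3 in 3 of 11 (45.8%) and in SKOV-3 in 3 of 12 (40.3%). In DU-145 TEAD was present in 6 of 32 (11.9%). In OVCAR-3, TEAD was present in 5 of 11 (12.9%), in COLO-205 in 4 of 11 (11.7%) and in SKOV-3 in 2 of 12 (15.5%). AP-1 was present in 3 of 32 distal windows in DU-145 (7.83%), 2 of 11 in COLO-205 (4.93%), 1 of 12 in SKOV-3 (6.97%) and 0 of 11 in OVCAR-3 (7.24%). Among promoter windows, AP-1 was present in 2 of 12 in DU-145 (4.15%), 2 of 11 in SKOV-3 (2.84%), 0 of 7 in COLO-205 (3.10%) and 0 of 2 in OVCAR-3 (3.98%). In SKOV-3 promoter windows, the E-box was in 6 of 11 (22.2%), TEAD in 1 (9.18%) and the GC box in 5 (67.1%). DU-145 had the E-box in 3 of 12 (30.7%), TEAD in 2 (10.7%) and the GC box in 2 (48.5%). COLO-205 had the E-box in 3 of 7 (32.5%), TEAD in 1 (9.65%) and the GC box in 2 (52.9%). OVCAR-3 had the E-box in 2 of 2 (30.0%), TEAD in 1 (10.5%) and the GC box in 1 (52.0%). The EGR motif was present in none of the windows of the 10 genes in any line. Windows at 1 gene lie close together and may overlap, so they are not independent, and the counts are a description.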
